A study of Homo sapiens with 12 samples.

Results

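The immunoglobulin heavy, kappa and lambda loci were described from 12 lists of H3K27ac peaks made by CUT&RUN in RPMI 8226, an established human multiple myeloma line. All peaks lying in 3 windows of hg38 were taken: chr14:105400001-106900000 for the heavy chain locus (IGH), chr2:88800001-90300000 for the kappa locus (IGK) and chr22:22000001-23000000 for the lambda locus (IGL). They numbered 1158 of 573987 peaks on chromosomes 1 to 22 and X over the 12 libraries, namely 376 in IGH, 296 in IGK and 486 in IGL, and no peak crossed an edge of a window. The rule uses position, not signal.

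The 4 groups had 3 libraries each. Cells carried a scramble control (SCR) or a knockout of CEBPB (KO), which encodes the bZIP transcription factor C/EBP beta, and received either DMSO or 10 µM dexamethasone (Dex), a glucocorticoid, for 2 h before 100000 cells were used per assay. All groups share the RPMI 8226 background. The labels name no guide and leave unsaid if a genotype was 1 clone or many. They also do not state that replicates were grown separately, so p-values measure the spread between libraries, which may be technical.

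H3K27ac marks nucleosomes at active promoters and enhancers. In a B cell the variable (V), diversity (D, heavy chain only) and joining (J) segments are recombined into 1 expressed exon upstream of a constant (C) gene, and class switching later replaces IGHM and IGHD by a downstream heavy chain constant gene. Known enhancers lie between the J segments and the constant gene of IGH and IGK, and 3′ of the constant genes of all 3 loci; in IGH a 3′ regulatory region follows each alpha gene. Plasma cells and myeloma cells secrete the product of these loci, and RPMI 8226 is known as a lambda light chain producer.

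Sequences were read from RefSeq tables of build GRCh38.p14, in which 45 promoters of 31 genes lay in the windows and no immunoglobulin segment had an entry. The promoters below are the 250 bases before a start site, 5′ to 3′ on the gene's own strand. VPREB1 encodes a part of the surrogate light chain of pre-B cells, and its promoter lay in a region that was higher in the knockout. The promoter of LOC124907856 lay in the marked stretch on the 3′ side of IGKC, the kappa constant gene. Both were covered in all 12 libraries. That of PRAME, a cancer-testis antigen gene inside the lambda V cluster, was covered in none. Capitals mark matches of CAGGTG (E-box), TTGCNNAA (C/EBP) and GAGGAAG (PU.1) on either strand; in VPREB1 an E-box and a PU.1 match adjoin and form 1 run of capitals.
VPREB1, plus strand, chr22:22244536-22244785: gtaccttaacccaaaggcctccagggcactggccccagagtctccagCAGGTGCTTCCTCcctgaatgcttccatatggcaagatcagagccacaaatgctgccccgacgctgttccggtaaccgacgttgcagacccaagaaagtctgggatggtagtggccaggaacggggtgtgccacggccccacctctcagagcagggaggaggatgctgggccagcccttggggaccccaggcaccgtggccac
LOC124907856, minus strand, chr2:88855605-88855854: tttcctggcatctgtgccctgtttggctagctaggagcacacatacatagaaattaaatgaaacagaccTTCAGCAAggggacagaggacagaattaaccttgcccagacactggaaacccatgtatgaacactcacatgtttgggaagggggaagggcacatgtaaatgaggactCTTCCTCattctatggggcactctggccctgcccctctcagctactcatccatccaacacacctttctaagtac
PRAME, minus strand, chr22:22559266-22559515: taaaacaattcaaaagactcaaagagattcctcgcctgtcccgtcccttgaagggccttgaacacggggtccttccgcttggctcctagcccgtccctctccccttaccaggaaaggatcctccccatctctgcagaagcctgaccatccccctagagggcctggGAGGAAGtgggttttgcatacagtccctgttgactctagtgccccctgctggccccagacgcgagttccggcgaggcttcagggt

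Counted over 300 bases, to 50 after the start, 20 of the 45 promoters held CAGGTG, 14 held GAGGAAG and 2 held TTGCNNAA. Among all 35116 promoters of the table the shares were 20.592%, 13.598% and 10.46%. Some of the 45 are overlapping windows of 1 gene, as at LOC101929255 and LOC102724638. The same match can therefore be counted more than once. None of the 45 held the octamer ATTTGCAT, found in 1.774% of all promoters, a kappa-B site (0.191%) or a glucocorticoid response element (0.003%). These are matches of letters in short windows and are not binding sites.

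A second set of sequences shows the landmarks. MIR8071-1 and MIR8071-2 lie on the 3′ side of IGHG4 and of IGHG2 and have the same hairpin of 65 bases, which illustrates how alike the duplicated parts of IGH are (capitals: the mature sequence). MIR4538 lies between IGHM and the J segments, where the switch region of IGHM is, and shows short repeats (capitals: GAGCU and GGGCU). A peak touched MIR8071-1 in 1 library, MIR8071-2 in 0 and MIR4538 in 0. MIR4436A lies on the 3′ side of IGKC in a region marked only in knockout libraries, and is shown as its mature sequence with the seed, bases 2 to 8, in capitals.
MIR8071-1, plus strand, chr14:105621116-105621180: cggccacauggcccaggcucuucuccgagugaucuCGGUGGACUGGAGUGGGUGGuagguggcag
MIR8071-2, plus strand, chr14:105640168-105640232: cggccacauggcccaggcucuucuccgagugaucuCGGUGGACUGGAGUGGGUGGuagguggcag
MIR4538, minus strand, chr14:105858165-105858242: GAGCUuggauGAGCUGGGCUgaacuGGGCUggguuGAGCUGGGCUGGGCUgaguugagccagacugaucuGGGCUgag
hsa-miR-4436a, from MIR4436A, plus strand, hairpin chr2:88812370-88812454: gCAGGACAggcagaaguggau

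The libraries held 41164 to 56421 peaks covering 48.0 to 66.4 Mb. The lists hold no read counts, so sequencing depth is unknown. Of 10 plasma cell markers 9 or 10 had a peak within 1 kb in every library, among them SDC1, IRF4, PRDM1, XBP1, MZB1 and JCHAIN in all 12. Of 7 T cell markers 1 to 5 were marked and of 6 myeloid markers 3 or 4, with CD3G and LYZ in 0 libraries but CD8A, CSF1R, CSF3R and ITGAM in all 12. Of 6 germinal centre and early B cell markers 3 to 5 were marked. At the glucocorticoid target genes, length covered within 25 kb was, in SCR DMSO and SCR Dex, 6.85 ± 1.10 and 9.45 ± 0.875 kb at FKBP5, 6.90 ± 0.491 and 11.5 ± 0.447 kb at TSC22D3, and 0.646 ± 0.648 and 12.1 ± 2.35 kb at ZBTB16 (SD, n = 3). In KO DMSO and KO Dex it was 6.01 ± 1.12 and 9.31 ± 1.55 kb at FKBP5, 6.42 ± 1.05 and 7.51 ± 0.667 kb at TSC22D3, and 0 and 3.34 ± 0.654 kb at ZBTB16. At CEBPB it was 5.61 ± 0.502 and 4.45 ± 0.314 kb in SCR DMSO and Dex and 4.77 ± 0.472 and 4.43 ± 0.405 kb in KO; a histone mark does not check the deletion.

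Acetylation lay on the constant gene side in IGH, at both ends of IGK, and both along the V segments and 3′ of the constant genes in IGL. Peaks covered 57.1 to 68.8 kb of the IGH window per library, 27.1 to 42.3 kb of IGK and 55.6 to 76.2 kb of IGL. Any position covered in at least 1 library made up 110.63 kb of IGH, 68.16 kb of IGK and 107.99 kb of IGL, and 33.42%, 30.42% and 32.71% of that length was covered in all 12.

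**Figure D1:**
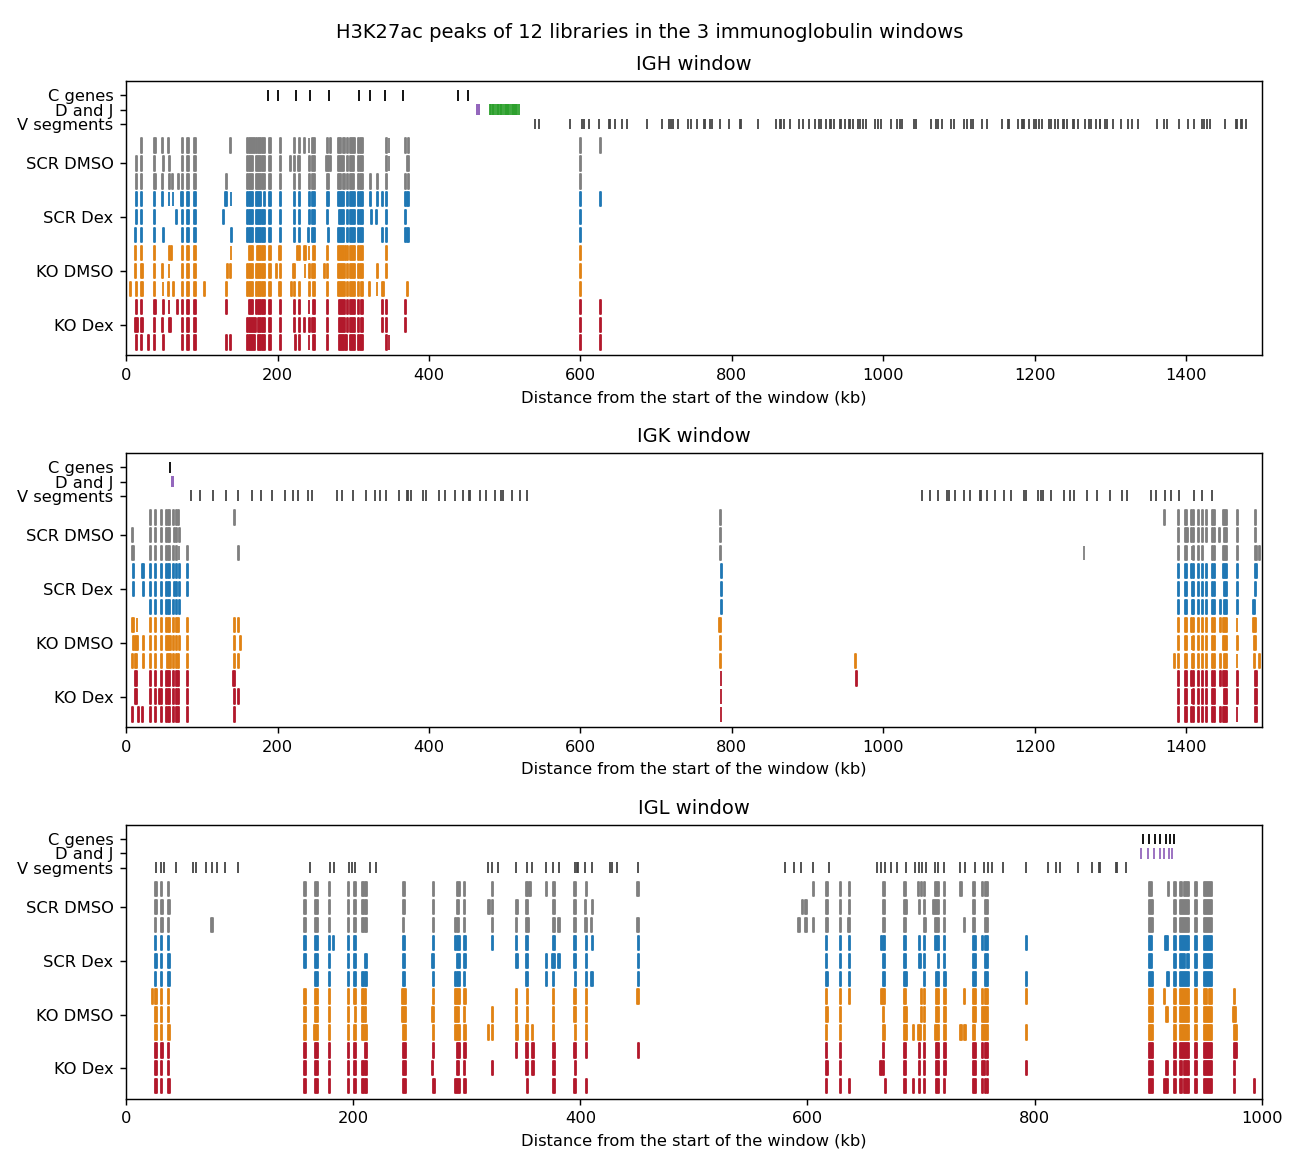
Peaks of the 12 libraries in each window, 1 row per library, against the distance in kb from the start of the window; grey, blue, orange and red rows are SCR DMSO, SCR Dex, KO DMSO and KO Dex, peaks under 1.2 kb are drawn at that width, and ticks above give the RefSeq V, D, J and C segments. In IGH the peaks end near IGHG3, short of IGHD and IGHM, apart from 2 positions among the V segments. In IGK they sit mostly at both ends, and in IGL they run through the V segments.

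In IGH the densest stretches were the 40 kb on the 3′ side of IGHA2 and of IGHA1, the 2 alpha constant genes. Peaks covered 32.29 to 44.628% of the first and 35.67 to 42.108% of the second in single libraries. Between IGHA2 and the second of these stretches, covering the IGHE, IGHG4 and IGHG2 genes, the share was 11.889 to 18.454%, and from IGHA1 to IGHM it was 2.655 to 5.699%. Non-immunoglobulin genes at the start of the window, among them MTA1, had 6.553 to 10.506%.

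No library had a peak from IGHM to the last J segment, the side of the intronic enhancer, nor over the D segments. The peak-free stretch chr14:105773144-105999568 ran for 226.4 kb, from beyond IGHG3 through IGHD, IGHM, all 9 J segments, all 27 D segments and 3 V segments. Only 2 of 127 V segments and V pseudogenes had a peak within 1 kb in any library, and beyond chr14:106026724 the remaining 873.3 kb of the window with 120 V segments held no peak. A peak list cannot tell a stretch without acetylation from one lost from this line's DNA by recombination or one to which reads could not be placed. How reads with several equally good positions were treated is not given in the sources used here, and values at near-identical copies, such as the gamma genes, are uncertain for that reason.

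Among the IGH V segments 1 region was marked throughout. The region chr14:105999837-106000570, between IGHV1-2 and IGHVIII-2-1, had a peak in all 12 libraries and the highest mean fold enrichment of the IGH regions, 4.12 over the peak caller's background. Its next neighbour, chr14:106026266-106026720 beside IGHV7-4-1, had a peak in 5 libraries. It was 5.32, 5.52 and 4.92 in the 3 KO Dex libraries, 2.64 in 1 SCR DMSO library, 2.01 in 1 SCR Dex library and without a peak in the other 7.

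In IGK the 57.4 kb of the window on the 3′ side of IGKC was covered to 8.813 to 22.924%, and the 4.6 kb from IGKC to IGKJ1 to 23.756 to 57.375%. IGKC itself was under a peak in all 12 libraries and IGKJ1 in 10. In all, 3 sharp regions stood 3′ of IGKC in all 12 libraries. Mean fold enrichment was 5.22 at chr2:88845513-88846468, with single libraries from 4.96 to 5.59. It was 4.05 at chr2:88837784-88838856 (3.655 to 4.853) and 4.02 at chr2:88831786-88833145 (3.499 to 4.498). The last lies over IGKDEL, the kappa deleting element.

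The kappa V segments come as a proximal and a distal, inverted copy. The part from the J segments through the proximal copy, chr2:88861924-89330429, was covered to 0.554 to 1.789%. Its longest region, chr2:88865530-88870121, lay between the J segments and the first V segment. That region was covered over 2010 to 2844 bp in SCR libraries and 2274 to 4592 bp in KO libraries. The stretch chr2:88950469-89583756, with 35 V segments, held no peak in any library. The distal copy together with the rest of the window beyond it was covered to 3.666 to 4.8%. Stretches of 300.4 kb with 23 distal V segments (chr2:89764341-90064726) and of 105.9 kb with 7 (chr2:90065247-90171159) were also bare, and 3 regions present in all 12 libraries lay beyond its last segment. At its far end IGKV1D-42, IGKV1D-43, IGKV1D-8 and IGKV3D-7 were marked, with a peak within 1 kb, in all 12 libraries. They were the only 4 of 76 kappa V segments and pseudogenes marked throughout, and 71 were marked in none. The limit given for bare stretches of IGH, lost DNA or reads that could not be placed, applies here and in IGL too. It also limits the comparison of the proximal with the distal copy. The region over IGKV1D-8, chr2:90220668-90221621, had a mean fold of 4.05, between 3.79 and 4.31 in single libraries.

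The V side of IGL was broadly marked. Of 73 lambda V segments and pseudogenes 18 to 27 were marked per library, 14 in all 12 libraries and 36 in none. Those in all 12 included IGLV4-69, IGLV6-57, IGLV11-55, IGLV5-48, IGLV5-45, IGLV7-43, IGLV3-25, IGLV3-19, IGLV3-16 and IGLV2-14. The highest mean folds were 5.46 over IGLV11-55 (chr22:22200880-22202172), 5.25 over IGLV3-19 (chr22:22720221-22721704), 5.14 at chr22:22269550-22270536, 4.61 beside IGLV3-30 (chr22:22616337-22617471) and 4.59 over IGLVI-70 (chr22:22025336-22026680).

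The 2 longest stretches of the lambda window without a peak in any library were these. One, chr22:22450774-22592059, spans 141.3 kb with ZNF280B, ZNF280A and PRAME. The other, chr22:22792885-22900498, spans 107.6 kb with 10 V segments, IGLL5, IGLJ1, IGLC1 and IGLJ2. Shorter ones of 81.5 kb (chr22:22075369-22156890) and 39.7 kb (chr22:22410377-22450109) held 3 V segments each. Acetylation resumed at IGLC2, the only lambda constant gene under a peak in all 12 libraries. IGLC1, IGLC3 and IGLC7 themselves were under none, and the pseudogene IGLC5 was under a peak in 4 libraries. From IGLC7 to the end of the window, where the lambda enhancer lies, 19.804 to 26.89% was covered.

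Wide peaks made up a larger share of the peaks in IGH and IGL than of all peaks. Peaks over 5 kb were 5.88 to 13.8% of the IGH peaks of a library and 2.27 to 8.11% of the IGL peaks, against 0.215 to 0.304% of all peaks. In IGK they were 0 to 8.33%. These shares rest on few peaks, 2 to 4 per library in IGH, 1 to 3 in IGL and 0 to 2 in IGK. The widest IGH peak ranked between 2 and 36 among all peaks of its library and the widest IGL peak between 3 and 24, while the highest fold stood at percentile 66.4 to 93.6 in IGH, 87.0 to 99.9 in IGK and 93.6 to 99.8 in IGL. The median fold of a peak was 2.88 ± 0.135 in IGH, 3.32 ± 0.185 in IGK and 3.60 ± 0.210 in IGL, against 3.45 ± 0.187 over all peaks (SD, n = 12).

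Stretches covered in at least 3 libraries, joined over gaps of up to 1 kb, gave 59890 consensus regions genome-wide, of which 108 lay in the loci (37 in IGH, 25 in IGK and 46 in IGL). Of the 108, 64 (59.26%) had a peak in all 12 libraries, against 41.3% of all regions. The longest was chr14:105680074-105689297 on the 3′ side of IGHA1, at 9224 bp the 4th longest region of the genome. Next came chr22:22928371-22936259 (7889 bp, rank 14) and chr22:22949341-22956493 (7153 bp, rank 34), both 3′ of IGLC7. The regions on the 3′ side of IGHA2, chr14:105562433-105569510 and chr14:105571345-105577764, ranked 38 and 58, and chr14:105695298-105701662, close to IGHA1, ranked 63. In IGK the longest was chr2:88852317-88858487, over IGKC, at 6171 bp and rank 78.

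At the longest domains the ranges of fold overlapped between the genotypes, and width partly differed. The widest peak over chr14:105680074-105689297 measured 3934 to 7234 bp in SCR libraries and 6342 to 9055 bp in KO libraries. Some libraries had 2 peaks there, and covered length was 6627 to 7604 bp in SCR and 6704 to 9055 bp in KO. The widest peaks had a fold of 1.96 to 2.12 in SCR and 1.81 to 1.97 in KO. All KO values but that of KO DMSO replicate 2 lay below every SCR value. At chr14:105695298-105701662 the fold was 2.36 to 2.59 in SCR and 2.36 to 2.48 in KO. Over chr22:22928371-22936259 it was 2.24 to 2.62 and 2.06 to 2.42. Over IGKC the widest peak measured 2854 to 3103 bp in SCR and 3040 to 6745 bp in KO. All SCR libraries had 2 peaks in that region, as had KO DMSO replicate 1 and KO Dex replicates 2 and 3. The other KO libraries had 1 longer peak. Covered length there overlapped, at 3349 to 4502 bp in SCR and 3860 to 5519 bp in KO. In the genome-wide fit of region values, described next, none of these 7 longest regions passed the threshold in any contrast.

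The effect of the CEBPB knockout was tested on log2(fold + 1) of every consensus region with limma, adjusting p over all 59890 regions. With both treatments averaged, 8 of the 108 regions were higher in KO (7.41%; 10.8% of all regions were) and 6 were lower (5.56%; 10.6% of all were). Both shares were below those of the genome as a whole. All 6 lower regions lay over or within 2 kb of a segment (4 in IGH, 2 in IGL), as did 1 of the 8 higher ones (3 in IGK, 5 in IGL), against 53 of all 108. This property was noticed after the values were seen.

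**Figure D2:**
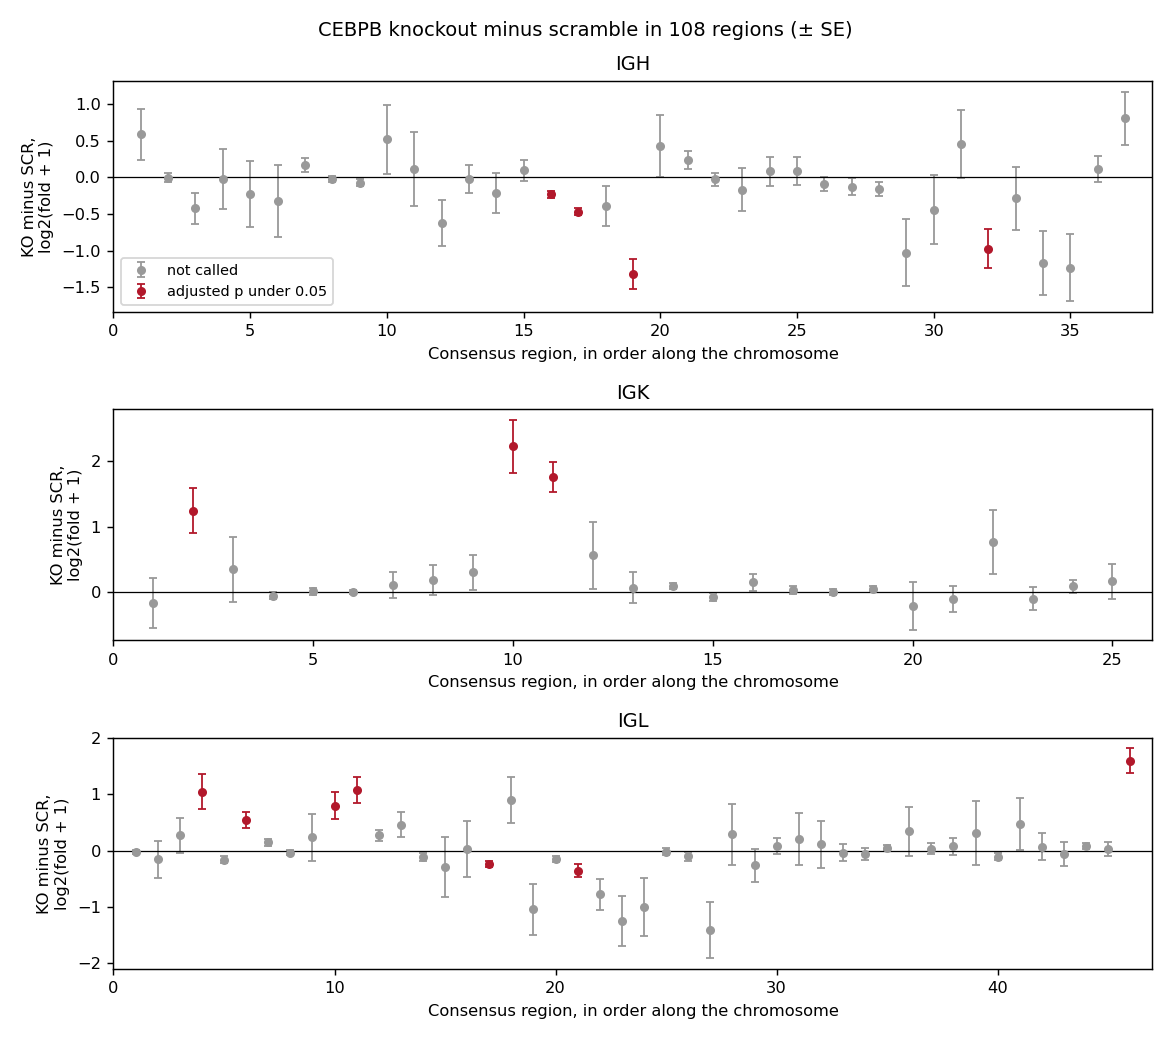
Difference KO minus SCR, averaged over treatments, on the log2(fold + 1) scale (points, with bars of 1 SE) for the 108 consensus regions in order along each chromosome; red points had an adjusted p under 0.05. The 4 red points of IGH lie below 0, the 3 of IGK above 0, and IGL has 5 above and 2 below.

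In IGH the lower regions sat beside constant genes. The heavy chain genes are read toward lower coordinates, and 7 of the 9 functional constant genes had a region starting 53 to 1575 bp beyond their higher end, the 5′ side with the switch region and the start of the germline transcript; IGHD and IGHM had none. Regions at IGHA2, IGHE, IGHG4 and IGHG1 were lower in KO. Those at IGHG2, IGHA1 and IGHG3 did not pass.

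The region beside IGHE, chr14:105602575-105603997, separated the genotypes in every library. Its mean fold was 4.23, 4.96 and 4.46 in SCR DMSO, 4.41, 4.28 and 4.10 in SCR Dex, 3.03, 3.14 and 2.90 in KO DMSO and 2.54, 2.97 and 2.74 in KO Dex. It fell by 0.47 on the log2(fold + 1) scale (SE 0.05, limma adjusted p = 2.5e-05), the smallest p among the 108 regions. The covered length hardly differed, 1237 to 1423 bp in SCR and 1035 to 1400 bp in KO, and the call was lost on covered base pairs (adjusted p = 0.082).

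Beside IGHG4, chr14:105627640-105630124 was largely lost in the knockout. Its fold was 2.92, 3.07 and 3.14 in SCR DMSO and 3.23, 3.14 and 3.10 in SCR Dex. It was 1.23 and 0.744 in 2 KO DMSO libraries and without a peak in the other, and 0.456, 1.71 and 0.344 in KO Dex. No KO library reached an SCR library, and covered length was 2302 to 2485 bp in SCR against 0 to 1495 bp in KO. The difference was −1.32 (SE 0.20, limma adjusted p = 0.00071).

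Beside IGHA2, chr14:105589072-105591436 was 3.36, 3.54 and 3.41 in SCR DMSO, 3.37, 3.37 and 3.24 in SCR Dex, 2.59, 2.85 and 2.68 in KO DMSO and 2.84, 2.87 and 2.77 in KO Dex. The genotypes did not overlap, by a small margin in absolute terms (difference −0.23, SE 0.05, limma adjusted p = 0.0065). Beside IGHG1, chr14:105743320-105744764 was 3.52 to 4.23 in SCR. In KO DMSO it was 2.30 and 0.985, with no peak in the third library, and in KO Dex 3.27, 3.01 and 0.749. This call (−0.97, SE 0.27, limma adjusted p = 0.024) was lost without SCR DMSO replicate 1, SCR Dex replicate 2 or KO Dex replicate 3 (adjusted p up to 0.058), and with a pseudocount of 0.25 (0.059), covered base pairs (0.12) or strong peaks (0.15).

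**Figure D3:**
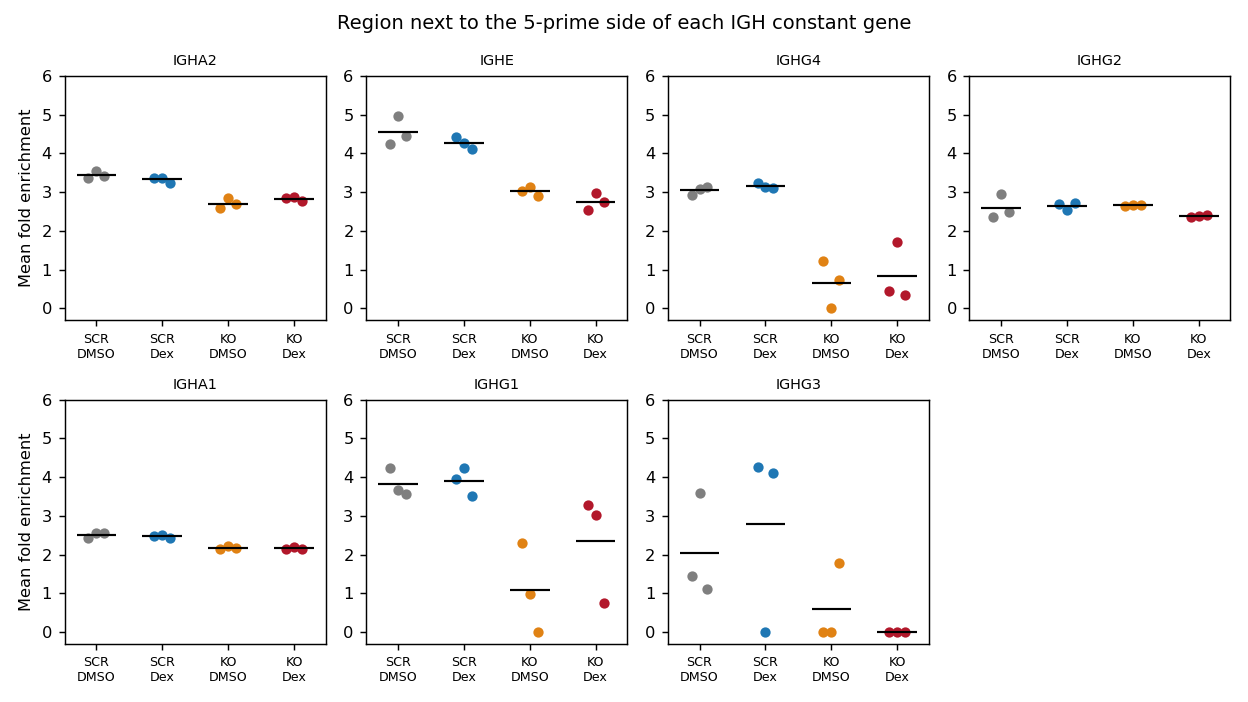
Mean fold enrichment in the region next to the 5′ side of each of 7 heavy chain constant genes; points are libraries and bars the means of 3. SCR points lie above all KO points at IGHA2, IGHE, IGHG4, IGHA1 and IGHG1, and the genotypes overlap at IGHG2 and IGHG3.

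Of the other constant genes, IGHA1 showed the same order on a smaller scale. Its region chr14:105709432-105712286 was 2.42 to 2.56 in SCR and 2.14 to 2.23 in KO, without overlap, and the difference of −0.16 (SE 0.10) did not pass (limma adjusted p = 0.29). At IGHG2, chr14:105645992-105649299 was 2.37 to 2.96 in SCR and 2.36 to 2.67 in KO (−0.03, SE 0.08, limma adjusted p = 0.84). At IGHG3, chr14:105771458-105773095 had a peak in 5 of 6 SCR libraries and 1 of 6 KO libraries (limma adjusted p = 0.083). Over all 108 regions the genotypes did not overlap in 14. KO was lower in 8 (7.41%; 5.84% of all regions), 5 of IGH and 3 of IGL, and higher in 6 (5.56%; 5.33% of all regions), 2 of IGK and 4 of IGL, so both shares were near those of all regions.

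In IGK all 3 called regions were higher in the knockout. The largest difference among the 14 was at chr2:88880462-88881008, 4564 bp from IGKV4-1, the V segment nearest to the J segments. Its fold was 8.06, 6.95 and 8.88 in KO DMSO and 8.00, 7.90 and 6.88 in KO Dex. In SCR it was 2.94 in 1 DMSO library, 2.15 and 3.09 in 2 Dex libraries and without a peak in the other 3. It rose by 2.23 on the log2(fold + 1) scale (SE 0.40, limma adjusted p = 0.0024), and missed the threshold on covered base pairs (adjusted p = 0.053).

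Near IGKV1-5, chr2:88942529-88943397 had a peak in all 6 KO libraries, at 3.15, 2.07 and 2.25 in DMSO and 2.80, 3.32 and 4.15 in Dex, and in 1 SCR library, at 1.76. It rose by 1.76 (SE 0.23, limma adjusted p = 0.00021). On the far 3′ side of IGKC, chr2:88811952-88814304, which holds the pseudogene MALLP2 and MIR4436A, had no peak in SCR. In KO it was 0.636, 2.47 and 2.35 in DMSO and 2.27 and 2.42 in 2 Dex libraries (1.24, SE 0.34, limma adjusted p = 0.024). That call was lost without SCR Dex replicate 1, KO DMSO replicates 2 or 3, or KO Dex replicates 1 or 2 (limma adjusted p up to 0.064). Both this region and the one near IGKV1-5 met the filter of at least 3 libraries only through KO libraries. Their p-values are thus no separate support for the scarcity of peaks in SCR.

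In IGL 5 regions were higher in the knockout, 1 of them over VPREB1. At chr22:22243526-22246760 the fold was 0.915, 1.03 and 1.37 in SCR DMSO, 0.813, 1.10 and 1.27 in SCR Dex, 3.15, 3.28 and 2.91 in KO DMSO and 2.79, 2.95 and 2.78 in KO Dex. The genotypes did not overlap, and it rose by 1.08 (SE 0.22, limma adjusted p = 0.0054). Covered length over the gene and 1 kb around it was 0.97 ± 0.199 and 0.90 ± 0.207 kb in SCR DMSO and Dex against 2.626 ± 0.18 and 2.489 ± 0.058 kb in KO (SD, n = 3). Of the germinal centre and early B cell markers 3 or 4 were marked in SCR libraries, over 2.84 to 4.94 kb in sum, and 4 or 5 in KO libraries, over 3.32 to 4.20 kb, and their part in this result was not tested.

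At the far end of IGL, chr22:22975266-22977600, 52353 bp beyond IGLC7, had no peak in any SCR library. Its fold was 2.01, 3.02 and 2.82 in KO DMSO and 2.56, 1.31 and 1.33 in KO Dex (1.60, SE 0.22, limma adjusted p = 0.00028). With the filter of at least 3 libraries, this region entered the test only through KO libraries. The p-value is thus no separate support for its absence in SCR. Over IGLVIV-59, a V pseudogene, chr22:22178370-22179426 was 0.968 to 3.70 in SCR and 3.54 to 5.65 in KO, with overlap (0.54, SE 0.14, limma adjusted p = 0.019). The last call was lost on covered base pairs (adjusted p = 0.54).

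Near IGLV4-60, chr22:22156908-22157597 was 0 to 3.85 in SCR and 4.70 to 6.56 in KO (1.05, SE 0.31, limma adjusted p = 0.034). Near IGLV10-54, chr22:22210449-22211252 was 0 to 2.23 in SCR and 2.72 to 3.69 in KO (0.80, SE 0.25, limma adjusted p = 0.04). Both calls were weak: each was lost with a smaller pseudocount, the first without any 1 of 8 libraries (all 6 KO libraries and SCR DMSO replicates 2 and 3; adjusted p up to 0.080) and the second without any 1 of 9 (all 6 KO and all 3 SCR DMSO libraries; up to 0.081).

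**Figure D4:**
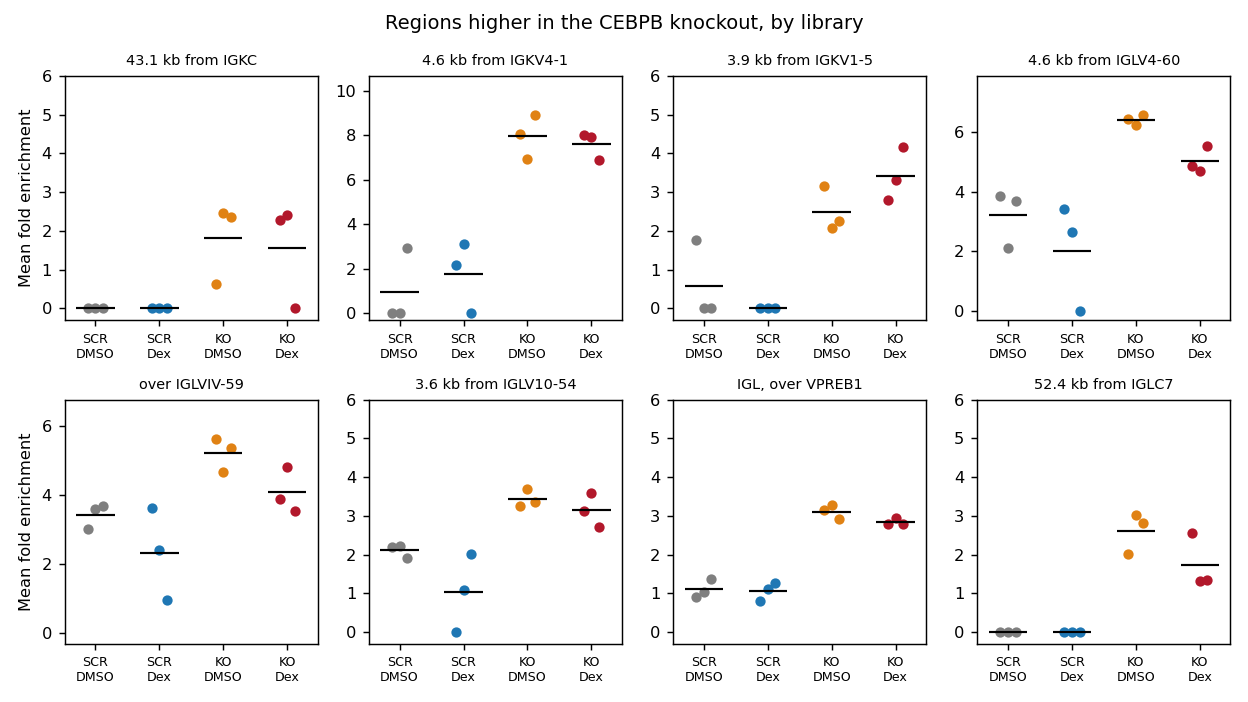
Mean fold enrichment per library (points; bars are means of 3, and the vertical scale differs between panels) in the 8 regions that were higher in the knockout. The KO points lie above all SCR points except over IGLVIV-59 and in the region on the far 3′ side of IGKC, where 1 KO library had no peak.

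Lower in the knockout in IGL were 2 regions over V segments. Over IGLV5-48, chr22:22352373-22353269 was 4.39, 4.56 and 3.62 in SCR DMSO, 4.52, 4.87 and 4.39 in SCR Dex, 3.61, 4.05 and 4.30 in KO DMSO and 2.87, 3.31 and 3.28 in KO Dex. The overall difference was −0.24 (SE 0.05, limma adjusted p = 0.0087); under Dex alone it was −0.41 (adjusted p = 0.0042) and under DMSO −0.07 (adjusted p = 0.67), and the test of their difference did not pass (adjusted p = 0.42). The overall call was lost with strong peaks, on covered base pairs, and with regions defined from at least 6 or at least 1 library (adjusted p up to 0.36). Over IGLV7-43, chr22:22394703-22395664 was 4.46 to 5.77 in SCR and 2.48 to 4.38 in KO (−0.36, SE 0.11, limma adjusted p = 0.044), and the call was lost without any 1 of 8 libraries (all 3 SCR DMSO, all 3 KO Dex and SCR Dex replicates 1 and 2; adjusted p up to 0.097). The regions over IGLC2, chr22:22900615-22903996 (−0.10, adjusted p = 0.28), and IGLV1-41, chr22:22404522-22405348 (−0.77, adjusted p = 0.069), did not pass, although every KO value was below every SCR value in both.

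Tested separately by treatment, 4 of the 108 regions were higher in KO under DMSO (3.70%; 6.04% of all regions) and 4 lower (3.70%; 6.47%). Under Dex 5 were higher (4.63%; 6.55%) and 3 lower (2.78%; 6.88%). Under DMSO these were the regions near IGKV4-1 and IGKV1-5, over VPREB1 and beyond IGLC7 on the higher side, and those beside IGHA2, IGHE, IGHG4 and IGHG1 on the lower side. Under Dex the lower ones were those beside IGHE and IGHG4 and over IGLV5-48. The 2 higher regions seen under Dex but not in the average were chr14:106026266-106026720 (2.22, SE 0.52, limma adjusted p = 0.016) and chr2:90266800-90268544, beyond the last kappa V segment (0.50, SE 0.15, limma adjusted p = 0.048). The latter was 2.66, 4.06 and 2.49 in SCR Dex and 4.24, 5.12 and 4.35 in KO Dex.

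Several calls within 1 treatment were lost when 1 library was left out or in another setting. Under Dex, the call at chr2:90266800 was lost in 8 of 10 other settings and without any 1 of 9 libraries (all but SCR DMSO replicate 2, SCR Dex replicate 2 and KO DMSO replicate 1; limma adjusted p up to 0.17). That at chr14:106026266 was lost on covered base pairs (0.078) and without SCR Dex replicates 2 or 3 or KO Dex replicates 1 or 2 (up to 0.064). That near IGKV4-1 was lost in 7 of 10 settings and without any 1 of 8 libraries (all KO, SCR Dex replicates 1 and 3; up to 0.14), and that beside IGHG4 in 3 settings and without any 1 of 6 (SCR DMSO replicate 2, all SCR Dex, KO Dex replicates 1 and 3; up to 0.12). Under DMSO, the calls near IGKV4-1 and IGKV1-5, over VPREB1 and beside IGHA2 and IGHG1 were lost without any 1 of 2, 3, 4, 4 and 8 libraries (up to 0.099). Among other settings, those beside IGHG1 and IGHA2 were lost in 7 and 4 of 10 (limma adjusted p up to 0.59 and 0.13). Near IGKV1-5 the call was lost in 3 of 9 (up to 0.44), and near IGKV4-1 on covered base pairs (0.22). Beside IGHG4 it was lost with only the groups compared (0.070). Beside IGHE it was lost with no filter on libraries and on covered base pairs (up to 0.94). Beside IGHE the call held without each library under both treatments.

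Covered length in fixed 10 kb tiles gave a second reading, in which 58892 tiles were tested, 96 of them in the loci. With treatments averaged 8 tiles were higher in KO (8.33%; 6.82% of all tiles) and 1 lower (1.04%; 6.70%). Under DMSO 5 were higher (5.21%; 3.42%) and 1 lower (1.04%; 4.17%), and under Dex 5 were higher (5.21%; 4.10%) and 0 lower (0%; 4.35%). The single lower tile, chr14:105620001-105630000, holds the region beside IGHG4 and was covered over 3401 to 3951 bp in SCR and 797 to 2757 bp in KO (−0.97 on log2(bp + 500), SE 0.19, limma adjusted p = 0.0074); on 20 kb tiles it did not pass (0.11). Under DMSO the lower tile was chr14:105740001-105750000 beside IGHG1 (−0.87, SE 0.21, limma adjusted p = 0.031). It was lost with 5 kb tiles (0.077), with strong peaks (0.60) and without SCR DMSO replicates 1 or 2 or KO DMSO replicates 2 or 3 (up to 0.11).

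Higher tiles included chr22:22970001-22980000, empty in all SCR libraries and covered over 1029 to 2740 bp in KO (2.21, SE 0.19, limma adjusted p = 2.7e-05), and chr22:22240001-22250000 over VPREB1, at 664 to 1457 bp in SCR and 2664 to 3503 bp in KO (1.25, SE 0.15, limma adjusted p = 0.00032). In IGK they were chr2:88810001-88820000, empty in SCR (2.09), chr2:88860001-88870000 (0.54), chr2:88880001-88890000 (0.75) and chr2:88940001-88950000 (1.51); in IGL chr22:22290001-22300000 rose by 0.41. The calls at 0.54, 0.75 and 0.41 were lost without any 1 of 8, 9 and 5 libraries. Tiles also had to be covered in at least 3 libraries, and those empty in SCR met this only through KO libraries. Their p-values are thus no separate support for that absence.

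The tile over the long domain on the 3′ side of IGHA1, chr14:105680001-105690000, was covered over 6627 to 7616 bp in SCR and 7407 to 9055 bp in KO (0.18, SE 0.03, limma adjusted p = 0.0034). This direction did not hold for strong peaks. When only peaks with −log10 q of at least 5 were kept, the difference was −1.87 (limma adjusted p = 7.2e-10). The widest peaks there had −log10 q of 5.19 to 8.13 in SCR, 5.32 to 6.85 in KO DMSO and 4.12 to 4.53 in KO Dex. All those of KO Dex thus fell under the cutoff and all those of KO DMSO passed it. The value of −1.87 is therefore no measure of a loss under both treatments. On 20 kb tiles the difference was 0.03 (limma adjusted p = 0.60).

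Summed over a locus, IGK alone passed the main test between genotypes. It took 0.0726 ± 0.00672% of each library's covered length in KO and 0.0582 ± 0.00303% in SCR (SD, n = 6), a ratio of 1.25 with no overlap, in an exact stratified permutation test of 400 arrangements, two-sided (p = 0.005, the smallest it allows; adjusted p = 0.03 over 12 tests). Weighted by fold the shares were 0.0614 ± 0.00355% and 0.0508 ± 0.00335% (exact permutation adjusted p = 0.03). Both calls held without each KO Dex library and were lost without any 1 of the other 9 (exact permutation adjusted p 0.06 to 0.09). With so few arrangements the exact test moves in coarse steps. These losses therefore cannot tell a weak difference from the limit of the test. In absolute terms IGK was covered over 31.2 to 35.3 kb in SCR DMSO, 27.1 to 34.9 kb in SCR Dex, 41.3 to 41.6 kb in KO DMSO and 38.2 to 42.3 kb in KO Dex.

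**Figure D5:**
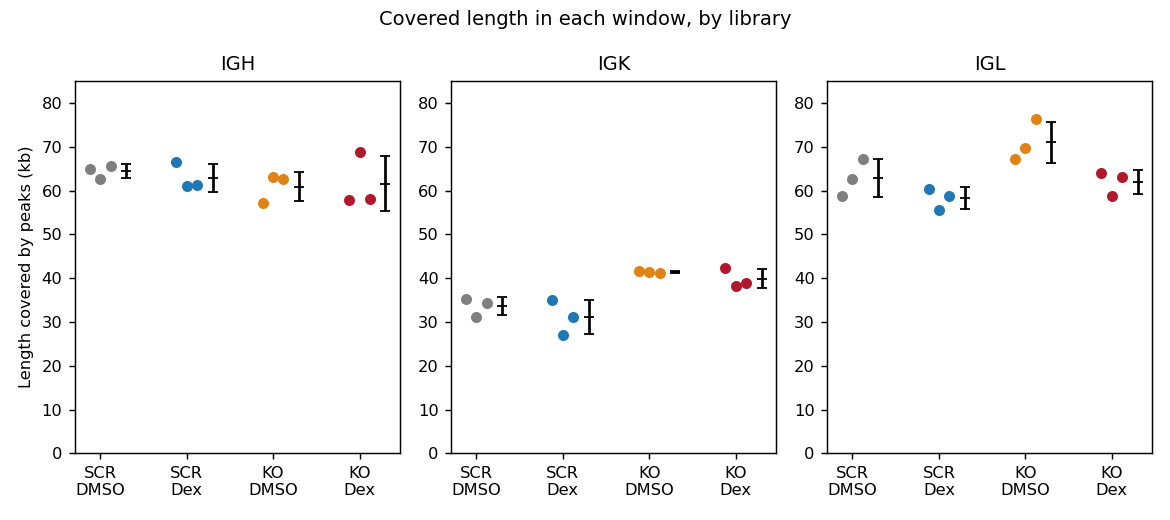
Length covered by peaks in each window (kb, from 0), 1 point per library, with mean ± SD of 3 beside each group. In IGK the 6 KO libraries lie between 38.2 and 42.3 kb, above the 6 SCR libraries; in IGH and IGL the genotypes overlap.

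The surroundings of IGK also took a larger share in KO libraries. The 10 Mb on either side of the window, window left out, took 0.700 ± 0.0114% of the covered length in SCR and 0.770 ± 0.0109% in KO (SD, n = 6), a ratio of 1.10, and the whole of chromosome 2 had a ratio of 1.16. Taken as a share of the surroundings and window together, the IGK difference was no longer past the threshold (8.61 ± 0.714% against 7.67 ± 0.287%, exact permutation adjusted p = 0.12). Within the window the 3′ side of IGKC was covered over 6.938 ± 0.573 kb in SCR DMSO and 11.015 ± 2.036 kb in KO DMSO. From the J segments through the proximal V segments it was 3.912 ± 1.14 and 6.154 ± 1.521 kb. The distal V part and beyond was 20.099 ± 0.992 and 20.099 ± 1.05 kb (SD, n = 3). In SCR Dex and KO Dex the 3′ side was 6.693 ± 2.147 and 9.277 ± 0.808 kb, with overlap. The other parts were 3.219 ± 0.223 and 7.608 ± 1.011 kb, and 19.227 ± 2.451 and 20.625 ± 0.788 kb. The 10 plasma cell markers together were covered over 41.0 to 48.3 kb in SCR libraries and 50.4 to 54.4 kb in KO libraries; their part in the knockout results was not tested.

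IGH took 0.109 ± 0.00773% of covered length in KO and 0.115 ± 0.0100% in SCR (exact permutation adjusted p = 0.377), and 0.0758 ± 0.00481% and 0.0831 ± 0.00521% when weighted by fold (adjusted p = 0.12). With strong peaks only, the IGH shares were 0.126 ± 0.0169% and 0.171 ± 0.00947% without overlap (exact permutation adjusted p = 0.015). The IGL shares were 0.118 ± 0.00966% in KO and 0.110 ± 0.0122% in SCR (exact permutation adjusted p = 0.377).

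No member was called for dexamethasone, and few calls would be made among this many features at the rate of the whole genome. None of the 108 regions was called in SCR (0.975% of all regions were), in KO (0.716%), in the average (1.45%) or in the difference between genotypes (0.0334%) by limma. At an unadjusted p under 0.05 there were 3, 8, 11 and 4 regions, or 2.78, 7.41, 10.2 and 3.70%, against 7.51, 7.31, 9.47 and 6.64% of all regions. None of the 96 tiles was called either, where 0.513%, 0.328%, 0.411% and 0.0883% of all tiles were, and 5, 10, 8 and 8 (5.21, 10.4, 8.33 and 8.33%) had an unadjusted p under 0.05, against 7.30, 6.77, 8.36 and 5.54% of all tiles. The median drug difference of the 108 regions, averaged over genotypes, was 0.03 on the log2(fold + 1) scale, and of all regions −0.01.

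None of the regions of smallest p passed. On the higher side they included both regions among the IGH V segments. At chr14:105999837-106000570 the fold was 3.54, 2.45 and 2.88 in SCR DMSO, 5.63, 4.30 and 4.62 in SCR Dex, 4.84, 1.59 and 4.47 in KO DMSO and 5.73, 4.52 and 4.93 in KO Dex. All SCR Dex libraries exceeded all SCR DMSO libraries, but KO DMSO overlapped KO Dex, and the adjusted p was 0.31 (0.53, SE 0.18, limma). The others were chr14:106026266-106026720 (1.27, adjusted p = 0.20) and chr2:90226376-90228247 near IGKV1D-8 (0.90, adjusted p = 0.47). On the lower side were chr22:22616337-22617471 beside IGLV3-30 (−0.22, adjusted p = 0.12), chr22:22628492-22629737 (−0.22, adjusted p = 0.32) and chr22:22208000-22208374 (−1.05, adjusted p = 0.45).

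The share of covered length taken by each locus did not pass with dexamethasone. For IGH it was 0.117 ± 0.00659% with drug and 0.108 ± 0.00957% without (exact permutation adjusted p = 0.204). For IGK it was 0.0663 ± 0.00968% and 0.0645 ± 0.00913% (exact permutation adjusted p = 0.678), and for IGL 0.113 ± 0.00990% and 0.115 ± 0.0137% (exact permutation adjusted p = 0.851).

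A total of 12 non-immunoglobulin protein-coding genes lie in the windows, 6 in IGH and 6 in IGL. MTA1, a chromatin remodelling subunit, and TEDC1, a centriole protein gene, had 4.435 to 8.626 kb and 2.26 to 2.484 kb covered per library. Of the 6 lambda genes VPREB1 had a peak within 1 kb in all 12 libraries; ZNF280B, ZNF280A, PRAME, GGTLC2 and IGLL5 had none in any library. TMEM121, in the IGH window, had one in 2 libraries.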

How the data were processed

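H3K27ac was profiled by CUT&RUN in 12 RPMI 8226 libraries, 3 in each of 4 groups. Per the submitters' processing notes, Bowtie2 2.4.2, MACS3 3.0 and the hg38 build were used; other settings, the control for calling and the treatment of multi-mapping reads are not given in the sources used here. The deposited broad peak lists, 1 per library, give per peak its position, a display score by the authors' caller, the fold enrichment over the caller's background, and −log10 p and −log10 q as deposited. The display score and −log10 p were not used in tests. There are no read counts, so no counting interval could be given.

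Only the autosomes and X entered; between 213 and 296 peaks of each library, lying on other sequences, did not. Regions covered in at least 3 libraries were joined over gaps of up to 1 kb, and the mean fold over a region, with 0 where no peak lay, was tested as log2(fold + 1). Tiles of 10 kb were tested as log2(covered bp + 500). Both were quantile-normalised and fitted with limma 3.58.1 (trend, robust; R 4.3.3) on all 12 libraries without a replicate block, for 7 contrasts, with Benjamini-Hochberg adjustment over all features and a threshold of 0.05. Locus shares used exact permutation tests. The scripts were tested on simulated data. Python 3.11.15, pandas 2.3.3, NumPy 2.4.6, SciPy 1.17.1 and Matplotlib 3.10.9 were used.

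Named regions were the 5 of highest mean fold per locus, those called in a contrast, the 3 of smallest p per direction of an averaged contrast where none was called, and those at enhancer landmarks. The members, lists and rules were chosen with earlier results of these data known. The share of the 10 Mb around a window was added as an alternative after seeing the data.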

Additional observations from a re-analysis of the deposited data

How the results depend on the processing

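Counts of called members moved as follows. For regions, 1 rather than 0 was called for the drug in SCR with the replicate block and 0 to 1 when leaving out 1 library; for the drug in KO 1 with the replicate block or no filter on libraries, and 0 to 1; for the drug averaged 0 to 1. For the knockout under DMSO, 8 became 4 on covered base pairs and 5 to 10 without 1 library; under Dex, 8 became 5 with a pseudocount of 0.25, a filter of 6 libraries, covered base pairs or only the groups compared, and 3 to 9; averaged, 14 became 9 with strong peaks, 7 on covered base pairs and 11 to 16. For tiles, strong peaks gave 1 call rather than 0 for the drug in KO, the drug averaged and the difference of drug responses, and leaving out 1 library gave 0 to 1 for the drug in SCR, in KO and averaged. For the knockout, tiles gave 2 to 7 under DMSO (6 in all libraries), 3 to 7 under Dex and 6 to 11 averaged (9); under Dex, 5 became 3 with 5 kb tiles, no normalization or no filter and 9 with strong peaks. With strong peaks the tile at 105680001, where the widest KO Dex peaks fell under the cutoff, turned to −1.87 and that at 22290001 to −0.235. On covered base pairs the region beside IGHE under DMSO was 0.0169 (limma adjusted p = 0.94).

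Shares of covered length are given in percentage points, undivided amounts in kb. With strong peaks, the drug difference turned to −0.0137 (IGH), −0.00173 (IGK) and, weighted by fold, −0.00473 and −0.00178, and the knockout difference to −0.00153 in IGL; in IGH the knockout difference passed at −0.0447, and at −0.0265 weighted by fold. Not divided by the library total, the drug difference was −0.429 in IGH, −2.08 in IGK and −6.83 in IGL (which passed), and −1.37 and −8.86 weighted by fold in IGH and IGK; the knockout difference passed in IGL at 5.91 and in IGH, weighted by fold, at −17.5. From the first to the last segment, the latter passed at −0.00693. Relative to the 10 Mb around, IGK missed the threshold at 0.936 and 0.674 (weighted), and the drug difference in IGL was 0.0821. The IGK knockout difference was 0.0126 to 0.0166 without 1 library and 0.00940 to 0.0120 weighted; the drug difference was −0.000110 to 0.00397 and −0.00122 to 0.00141 in IGK and −0.00718 to 0.00140 in IGL. With the replicate block the IGK differences, 0.0144 and 0.0106, had adjusted p = 0.075 by exact permutation, since 64 arrangements allow no less than p = 0.0312; without 1 library it was 0.03 in 3 and 0.06 to 0.09 in 9 of 12 cases, for both measures. The replicate numbers did not pair the libraries (correlations of deviations −0.035 to 0.059 for regions), so the block is given here only. The causes of these shifts were not tested, and the depth of the libraries, being unknown, sets an unknown limit.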
